A study of Mus musculus with 4 samples.

Results

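The 47 mitosis genes described here are the cyclins and kinases of mitotic entry, the chromosomal passenger complex, the spindle checkpoint, centromere and kinetochore proteins, spindle motors and microtubule proteins, and cytokinesis genes, with Mki67 and Top2a as proteins of the mitotic chromosome. They were taken by gene symbol, each symbol stood on 1 row, and they make up 47 of 23234 different symbols measured. RNA was measured in 4 libraries of helper T cells from the spleens of C57BL/6 mice aged 43 weeks. Of these, 2 libraries (KO 1 and KO 2) are labelled as lacking RIPK1 in T cells only, and 2 (WT 1 and WT 2) as wild type; the labels name no Cre driver, allele or sort, and no treatment beyond the word Ctrl in every title. RIPK1 is a kinase that works in the signalling complex of the TNF receptor, where it takes part in survival and in cell death. Values are FPKM, the fragments of a gene scaled to the length of its transcript and to the mapped total of its library, so they may be compared between genes per length. Nothing states that each library stands for its own mouse, so p-values cover only their spread, possibly a technical one.

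A cell enters mitosis when cyclin B and the kinase CDK1 become active, helped by the Polo and Aurora kinases. Chromosomes then condense and attach through their kinetochores to spindle microtubules, the spindle checkpoint holds anaphase back until every kinetochore is attached, and CDC20 with the anaphase-promoting complex (APC/C) starts the separation that cytokinesis completes. Most of these genes are transcribed in G2 and M phase, which is why their RNA is commonly read as a sign of dividing cells, and resting T cells hold little of it.

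The targeted gene does not bear the labels out. Ripk1 stood at 10.4 and 9.54 FPKM in KO 1 and KO 2, against 5.61 and 5.60 FPKM in WT 1 and WT 2. It was higher, not lower, in the libraries labelled KO, by 0.73 on the log2(FPKM + 1) scale (limma, adjusted p = 0.0262), or by 0.33 after trimmed-mean scaling (limma, adjusted p = 0.192). FPKM of a whole gene cannot show whether single exons are missing, so the labels are kept here as labels. All 8 T cell markers looked up were at 1 FPKM or more in all 4 libraries, with Cd4 at 211 and 185 FPKM in KO 1 and KO 2 and 86.3 and 87.3 FPKM in WT 1 and WT 2, while Cd8a lay between 0.249 and 0.764 FPKM and Cd8b1 between 10.3 and 11.3 FPKM. By an estimate from the steps of low values, the libraries held 17600000 and 19200000 fragments (KO 1 and KO 2) and 21300000 and 22100000 fragments (WT 1 and WT 2).

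Genes expressed late in the cell cycle are known to carry in their promoters the cell cycle genes homology region (CHR), bound by the DREAM and MuvB complexes, and CCAAT boxes, bound by NF-Y. RefSeq promoter windows (GRCm38.p6, from 250 bases before to 50 bases after the gene start) were matched by symbol for 40 of the 47 genes, with 43 windows. Aurkb, Ccna2, Foxm1, Incenp, Kif20a, Stmn1 and Tpx2 had none. The CHR motif TTTGAA, read on both strands, was in 33 of the 43 windows (76.7%), against 5878 of 32851 windows of all genes (17.9%). CCAAT, read on both strands, was in 34 windows (79.1%), against 37.4% of all windows, and 58.1% held it at least 2 times, against 11.7%. Both motifs together were in 30 of the 43 windows (69.8%), against 6.95% of all. The other form of the CHR, TTTAAA, was in 23.3% of the members' windows and in 13.2% of all. Among windows of the genes tested below, TTTGAA was in 12.4% and CCAAT in 38.4%.

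Shown here are the windows of the pair with the largest fitted differences, Mki67 and Top2a, of the cyclin Ccnb2, of Bub3, which has both motifs but did not pass the test, and of Tacc3, which has neither and passed. Each is written 5′ to 3′ on the strand of the gene, with capitals for both motifs. On the strand shown, the CHR motif reads TTTGAA, or TTCAAA where it lies on the other strand. The NF-Y box likewise reads CCAAT, or ATTGG where it lies on the other strand. Matches of these motifs share no base in the windows shown, though they can, as in the window of Cdca8.
Mki67, chr7:135716330-135716629, minus strand: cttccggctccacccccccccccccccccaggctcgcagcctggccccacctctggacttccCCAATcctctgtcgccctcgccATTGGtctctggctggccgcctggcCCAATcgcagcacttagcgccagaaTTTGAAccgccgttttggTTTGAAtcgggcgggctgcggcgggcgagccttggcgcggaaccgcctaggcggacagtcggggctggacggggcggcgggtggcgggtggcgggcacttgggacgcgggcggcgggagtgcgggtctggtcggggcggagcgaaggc
Top2a, chr11:99024140-99024439, minus strand: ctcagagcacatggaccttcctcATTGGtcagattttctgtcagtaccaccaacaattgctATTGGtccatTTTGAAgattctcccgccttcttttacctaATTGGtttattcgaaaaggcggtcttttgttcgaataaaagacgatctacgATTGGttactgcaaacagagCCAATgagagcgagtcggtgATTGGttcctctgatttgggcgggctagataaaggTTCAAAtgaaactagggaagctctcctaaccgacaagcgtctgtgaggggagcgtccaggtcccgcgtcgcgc
Ccnb2, chr9:70421505-70421804, minus strand: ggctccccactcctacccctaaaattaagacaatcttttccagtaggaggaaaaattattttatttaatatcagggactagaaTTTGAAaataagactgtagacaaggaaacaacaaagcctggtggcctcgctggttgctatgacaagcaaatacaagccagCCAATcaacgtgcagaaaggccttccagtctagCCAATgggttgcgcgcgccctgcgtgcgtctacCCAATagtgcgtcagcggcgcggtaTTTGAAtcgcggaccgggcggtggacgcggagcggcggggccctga
Bub3, chr7:131560120-131560419, plus strand: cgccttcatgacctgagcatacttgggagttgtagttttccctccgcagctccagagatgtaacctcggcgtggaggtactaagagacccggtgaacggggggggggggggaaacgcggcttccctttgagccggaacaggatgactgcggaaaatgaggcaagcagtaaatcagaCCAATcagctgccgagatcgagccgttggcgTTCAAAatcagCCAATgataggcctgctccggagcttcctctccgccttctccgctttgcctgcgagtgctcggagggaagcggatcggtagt
Tacc3, chr5:33657878-33658177, plus strand: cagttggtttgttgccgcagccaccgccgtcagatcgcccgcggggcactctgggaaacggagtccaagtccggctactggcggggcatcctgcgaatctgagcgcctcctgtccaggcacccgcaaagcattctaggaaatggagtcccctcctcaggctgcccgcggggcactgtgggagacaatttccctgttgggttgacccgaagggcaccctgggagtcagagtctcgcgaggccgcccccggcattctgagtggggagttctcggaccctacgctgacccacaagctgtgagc

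In Mki67 the CHR motifs began 116 and 98 bases before the gene start, downstream of 3 CCAAT boxes. Top2a had 6 CCAAT boxes and a CHR motif 23 bases before its start, besides another at 179 bases. In Ccnb2 a CHR motif began 5 bases into the transcript, after 3 CCAAT boxes 87, 54 and 21 bases before the start. In Bub3 it began 43 bases before the start, between CCAAT boxes at 74 and 32 bases. Over all members the CHR motif began most often in the first 25 bases after the start (30.2% of windows, against 1.31% of all windows), and the CCAAT box between 75 and 50 bases before it (37.2%, against 6.99%). A match is a run of letters, not a shown binding site.

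**Figure D1:**
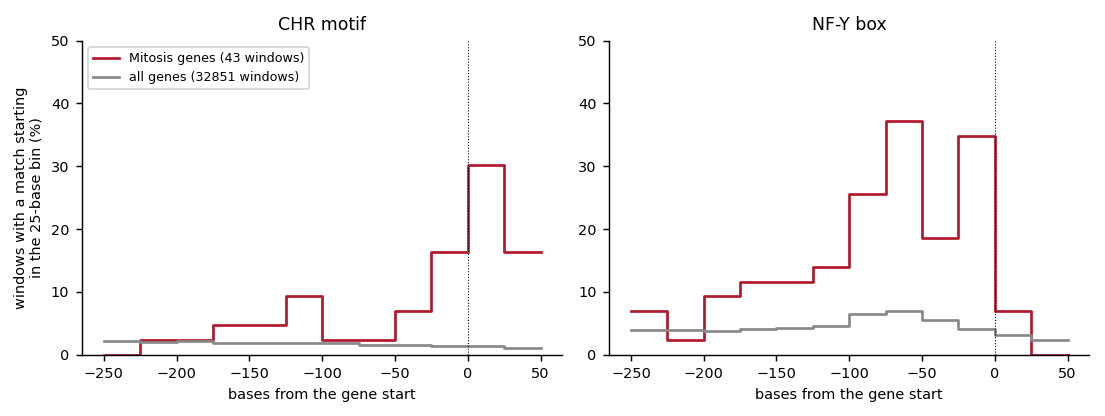
Share of promoter windows (y axis, %) with a CHR motif (left) or an NF-Y box (right) starting in each 25-base bin along the distance from the gene start (x axis, bases), for the 43 windows of mitosis genes (red) and 32851 windows of all genes (grey). The red line peaks at 30.2% just after the start for the CHR motif and at 37.2% upstream of it for the NF-Y box, and the grey line reaches at most 6.99%.

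The summed level of the mitosis genes was higher in both libraries labelled KO than in either WT library, most of all in KO 1. Summed over the 47 genes, the level was 462 and 269 FPKM in KO 1 and KO 2, against 154 and 158 FPKM in WT 1 and WT 2. Every member was higher in KO 1 than in both WT libraries, and 45 of 47 were higher in both libraries labelled KO than in both WT libraries; the exceptions were Birc5 and Cenpf. Among the 41 members tested below this held for 39, and over all rows tested 58.5% had both libraries labelled KO above both WT libraries. For 16 of the 39 the filter for testing, 1 FPKM or more in 2 or more libraries, fixed this outcome. They were below 1 FPKM in both WT libraries and entered only through both libraries labelled KO. In bulk RNA, more cells in division and more RNA of these genes per cell cannot be told apart.

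**Figure D2:**
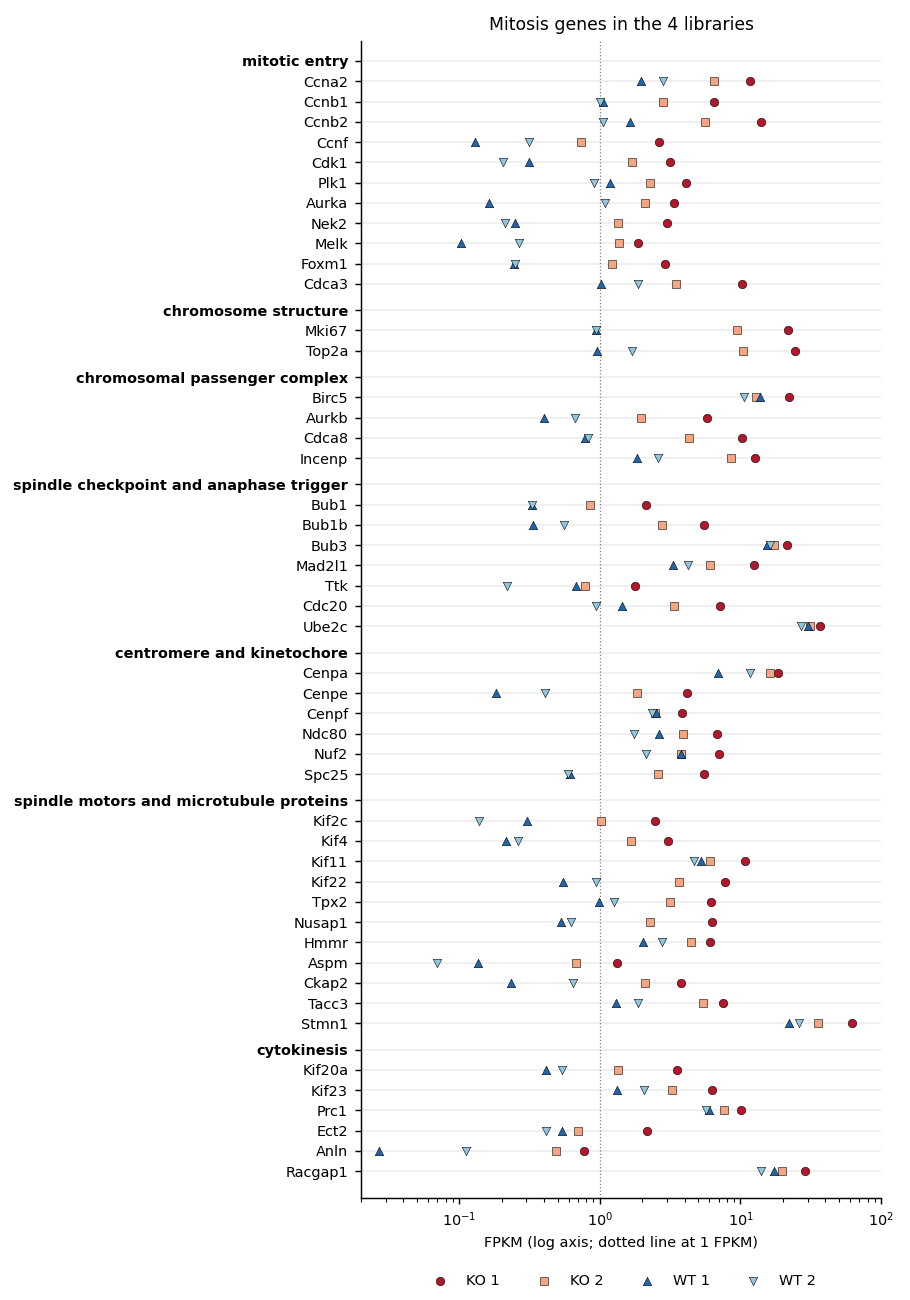
FPKM (x axis, log scale) of each of the 47 mitosis genes (rows, grouped by role) in KO 1, KO 2, WT 1 and WT 2. KO 1 is the rightmost point in every row, and KO 2 lies right of both WT points in all rows but Birc5 and Cenpf.

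limma was run on log2(FPKM + 1) for the 11074 rows that reached 1 FPKM in 2 or more libraries, and 41 of the 47 members were among them. Of these 41, 16 lay below 1 FPKM in both WT libraries and entered only through the libraries labelled KO: they had to differ, so for them the values, ratios and fitted differences are given as a description, with no p-value. They are Cdk1, Nek2, Melk, Foxm1, Mki67, Aurkb, Cdca8, Bub1b, Cenpe, Spc25, Kif2c, Kif4, Kif22, Nusap1, Ckap2 and Kif20a. Of the 25 tested members at 1 FPKM or more in a WT library, 14 passed at an adjusted p of 0.05 as higher in the libraries labelled KO (limma), against 23.7% of all such rows, 0 as lower, and 11 did not pass. Their median log2 change was 1.0 (range 0.24 to 2.89), against 0.35 over all such rows. With all 41 counted, the 16 that had to differ included, the number passing was 30, against 25.6% of all rows. The median was then 1.32, against 0.38 over all rows tested.

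The call depends on the scaling of the libraries. With trimmed-mean scaling, after the trimmed mean of M values, which brings the median row to 0.01, 5 of the 25 passed as higher (limma), against 3.76% of such rows: Ccna2, Ccnb2, Top2a, Incenp and Tacc3. Over all 41, the 16 that entered only through the libraries labelled KO included, the number was 15, against 4.52% of all rows. With quantile normalization 3 of 41 passed (Top2a and Incenp, and Mki67 of those that entered only through the libraries labelled KO), against 1.62% of all rows (limma). The call also rests on both WT libraries, as it does over all rows tested. A fit without WT 1 or WT 2 leaves 1 WT library, so only the change is given. The median log2 change of the 41 was 1.24 without WT 1 and 1.30 without WT 2. Above the median row it was 0.95 and 0.81, against 0.94 with all 4 libraries. Without KO 1, the library with the highest levels, the median log2 change of the 41 was 0.94, against 1.32 with all 4 libraries. Those 41 include the 16 that entered only through the libraries labelled KO.

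**Figure D3:**
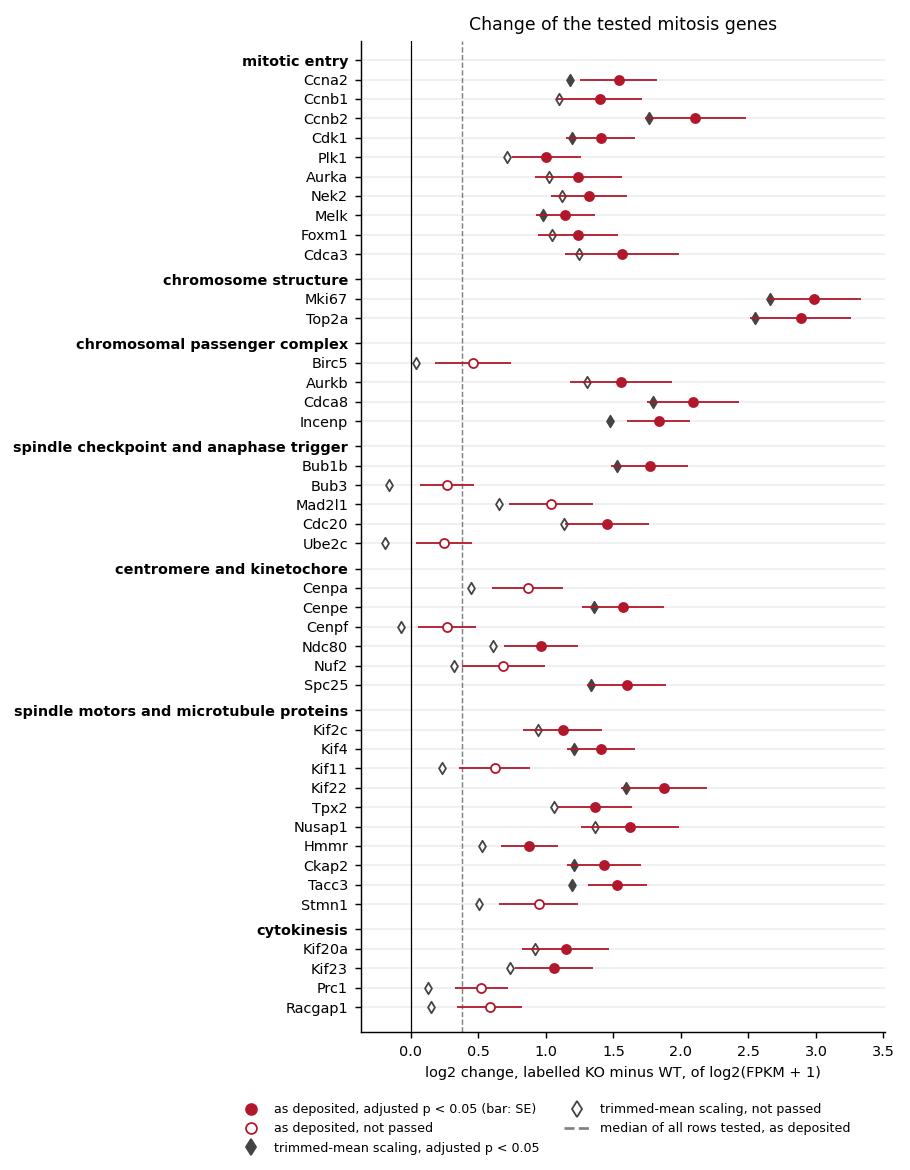
Log2 change of log2(FPKM + 1), libraries labelled KO minus WT (x axis), of the 41 tested mitosis genes (rows, grouped by role): circles with SE bars as deposited, diamonds after trimmed-mean scaling, filled where the adjusted p is under 0.05 (limma). Mki67 and Top2a stand furthest right at 2.99 and 2.89, the diamonds lie left of the circles, those of Bub3, Cenpf and Ube2c left of 0, and 16 genes, Mki67 among them, entered only through the libraries labelled KO. For those 16, which had to differ, the fill is not to be read as a test.

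Of the 11 genes of mitotic entry, 6 were tested at 1 FPKM or more in a WT library. All 6 passed as higher in the libraries labelled KO (limma), against 23.7% of all such rows. Of them 2 (Ccnb2 and Ccna2) also passed after trimmed-mean scaling (limma), against 3.76% of all such rows. Ccnb2, a B-type cyclin that activates CDK1, had 14.1 and 5.63 FPKM in KO 1 and KO 2 and 1.64 and 1.04 FPKM in WT 1 and WT 2. Its mean was 9.85 ± 5.96 FPKM in the libraries labelled KO and 1.34 ± 0.418 FPKM in the WT libraries (SD, n = 2 each), with a fitted log2 difference of 2.11 ± 0.38 (SE; limma, adjusted p = 0.0159; after trimmed-mean scaling 1.77, adjusted p = 0.0484). KO 1 stood 2.50 times above KO 2, and KO 2 still 4.2 times above the WT mean.

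Cdk1, the kinase that these cyclins switch on, had 3.14 and 1.68 FPKM in KO 1 and KO 2, and 0.315 and 0.204 FPKM in WT 1 and WT 2. It was below 1 FPKM in both WT libraries, and the ratio of its means was 9.28. Ccna2, the cyclin of S and G2 phase, had 11.7 and 6.46 FPKM in KO 1 and KO 2, and 1.95 and 2.80 FPKM in WT 1 and WT 2 (log2 change 1.54 ± 0.28, SE; limma, adjusted p = 0.0168). In both genes each library labelled KO was above each WT library. The other B-type cyclin, Ccnb1, had 6.49 and 2.83 FPKM in KO 1 and KO 2, against 1.06 and 1.003 FPKM in WT 1 and WT 2.

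Cdca3, which in frog eggs directs the destruction of the CDK1 inhibitor Wee1, had 10.3 and 3.48 FPKM in KO 1 and KO 2, and 1.01 and 1.86 FPKM in WT 1 and WT 2 (log2 change 1.57 ± 0.42, SE; limma, adjusted p = 0.0371). On the log2(FPKM + 1) scale it showed the largest gap of any tested member between KO 1 and KO 2. The Polo kinase Plk1, the Aurora kinase Aurka, the centrosome kinase Nek2, the kinase Melk and the transcription factor Foxm1, an activator of G2 and M phase genes, had ratios of means of 3.05 to 9.45; Plk1 and Aurka passed as deposited (limma), and the others entered only through the libraries labelled KO. As a ratio, the Aurka values in WT 1 and WT 2, 0.164 and 1.09 FPKM, were the furthest apart of any member within the WT group. Ccnf, a cyclin that acts as the substrate receptor of an SCF ubiquitin ligase, was at 1 FPKM or more in KO 1 only and was not tested; it had 2.62 and 0.736 FPKM in KO 1 and KO 2, against 0.129 and 0.311 FPKM in WT 1 and WT 2.

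The mitotic chromosome genes Mki67 and Top2a had the largest fitted differences of the members. Mki67, which coats mitotic chromosomes and is the source of the Ki-67 antigen used to stain cycling cells, had 21.7 and 9.39 FPKM in KO 1 and KO 2, and 0.939 and 0.937 FPKM in WT 1 and WT 2. The ratio of its means was 16.6 and its fitted log2 difference 2.99 ± 0.35 (SE), and it was just below 1 FPKM in both WT libraries. Top2a, the topoisomerase that untangles sister chromatids, had 24.3 and 10.4 FPKM in KO 1 and KO 2, and 0.947 and 1.70 FPKM in WT 1 and WT 2. Its mean was 13.1 times higher, with a fitted log2 difference of 2.89 ± 0.38 (SE; limma, adjusted p = 0.0127; after trimmed-mean scaling 2.55, adjusted p = 0.0226). For both, KO 2 alone stood far above both WT libraries, at 10.01 and 7.83 times the WT mean.

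Of the 4 genes of the chromosomal passenger complex, which corrects faulty attachments and later guides cytokinesis, Incenp passed as higher, Birc5 did not pass, and Cdca8 and Aurkb entered only through the libraries labelled KO. Incenp, its scaffold, had 12.6 and 8.52 FPKM in KO 1 and KO 2, and 1.84 and 2.57 FPKM in WT 1 and WT 2 (log2 change 1.84 ± 0.23, SE; limma, adjusted p = 0.0127), and passed after trimmed-mean scaling as well. Cdca8, the subunit borealin, had 10.2 and 4.27 FPKM in KO 1 and KO 2, and 0.785 and 0.824 FPKM in WT 1 and WT 2 (fitted difference 2.09 ± 0.34, SE). Aurkb, the kinase of the complex, had 5.82 and 1.96 FPKM in KO 1 and KO 2, against 0.398 and 0.669 FPKM in WT 1 and WT 2, with KO 1 at 2.97 times KO 2. Birc5 (survivin), the subunit that docks the complex on the centromere, had 22.2 and 13.0 FPKM in KO 1 and KO 2, and 13.7 and 10.6 FPKM in WT 1 and WT 2: KO 2 lay between the WT libraries. Subunits of 1 complex thus had unequal ratios of means, 8.99 for Cdca8 and 1.44 for Birc5.

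Of the 7 genes of the spindle checkpoint and the anaphase trigger, 4 were tested at 1 FPKM or more in a WT library. Of these 1, Cdc20, passed as higher (limma), a share close to the 23.7% of all such rows. Bub1b (BubR1), a checkpoint protein that binds and holds CDC20, had 5.46 and 2.75 FPKM in KO 1 and KO 2, and 0.336 and 0.560 FPKM in WT 1 and WT 2 (fitted log2 difference 1.77 ± 0.29, SE). Cdc20, the activator of the APC/C that the checkpoint holds back, had 7.17 and 3.35 FPKM in KO 1 and KO 2, and 1.44 and 0.941 FPKM in WT 1 and WT 2 (log2 change 1.45 ± 0.31, SE; limma, adjusted p = 0.0218, and 0.0672 after trimmed-mean scaling). In both genes each library labelled KO was above each WT library. Mad2l1, the checkpoint protein MAD2, had 12.5 and 6.05 FPKM in KO 1 and KO 2, and 3.30 and 4.24 FPKM in WT 1 and WT 2, and lay just past the threshold (limma, adjusted p = 0.0507).

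The remaining genes of this role differed little or were not tested. Bub3, the partner of Bub1b, had 21.4 and 17.3 FPKM in KO 1 and KO 2, and 15.3 and 16.3 FPKM in WT 1 and WT 2 (log2 change 0.27 ± 0.20, SE; limma, adjusted p = 0.333). Ube2c, the ubiquitin-conjugating enzyme of the APC/C, had 36.5 and 31.3 FPKM in KO 1 and KO 2, and 30.1 and 26.8 FPKM in WT 1 and WT 2 (0.24 ± 0.20; limma, adjusted p = 0.385). Their groups did not overlap, but both turned to lower values after trimmed-mean scaling, at -0.16 for Bub3 and -0.19 for Ube2c, without passing either way. The checkpoint kinase genes Bub1 and Ttk were at 1 FPKM or more in KO 1 only and were not tested. Bub1 had 2.13 and 0.856 FPKM in KO 1 and KO 2, against 0.327 and 0.327 FPKM in WT 1 and WT 2. Ttk had 1.78 and 0.789 FPKM in KO 1 and KO 2, against 0.682 and 0.217 FPKM in WT 1 and WT 2, so that KO 2 and WT 1 lay close together.

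At the centromere and kinetochore, 4 of 6 genes were at 1 FPKM or more in a WT library. Of these Ndc80 passed as higher and 3 did not pass (limma), a share close to the 23.7% of all such rows that passed. Spc25, which belongs to the NDC80 complex that grips the microtubule, had 5.54 and 2.59 FPKM in KO 1 and KO 2, and 0.612 and 0.591 FPKM in WT 1 and WT 2 (fitted log2 difference 1.60 ± 0.29, SE). Cenpe, the kinesin that moves chromosomes to the spindle equator, had 4.17 and 1.85 FPKM in KO 1 and KO 2, and 0.184 and 0.409 FPKM in WT 1 and WT 2 (1.57 ± 0.31). Both were below 1 FPKM in both WT libraries. Ndc80 itself had 6.80 and 3.88 FPKM in KO 1 and KO 2, and 2.65 and 1.75 FPKM in WT 1 and WT 2, and passed as deposited (log2 change 0.96 ± 0.27, SE; limma, adjusted p = 0.0420), but not after trimmed-mean scaling (limma, adjusted p = 0.185).

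Nuf2, the direct partner of Ndc80, had 7.07 and 3.79 FPKM in KO 1 and KO 2, and 3.76 and 2.14 FPKM in WT 1 and WT 2; KO 2 and WT 1 were nearly level (limma, adjusted p = 0.139). Cenpa, the histone variant that marks the centromere, had 18.4 and 16.2 FPKM in KO 1 and KO 2, and 6.90 and 11.8 FPKM in WT 1 and WT 2 (log2 change 0.86 ± 0.26, SE; limma, adjusted p = 0.0510). Its ratio of KO 1 to KO 2, 1.13, was the smallest of any member. Cenpf, a large protein of the outer kinetochore, had 3.86 and 2.49 FPKM in KO 1 and KO 2, and 2.51 and 2.35 FPKM in WT 1 and WT 2 (0.26 ± 0.21; limma, adjusted p = 0.372). Its groups overlapped, and its change was -0.07 after trimmed-mean scaling.

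Of 11 genes of spindle motors and microtubule proteins, 5 were tested at 1 FPKM or more in a WT library. Of these 3, Tacc3, Tpx2 and Hmmr, passed as higher (limma), against 23.7% of all such rows. After trimmed-mean scaling Tacc3 still passed (limma), against 3.76% of all such rows. Tacc3, which stabilises spindle microtubules, had 7.54 and 5.43 FPKM in KO 1 and KO 2, and 1.31 and 1.86 FPKM in WT 1 and WT 2 (log2 change 1.53 ± 0.22, SE; limma, adjusted p = 0.0129). Kif22, a kinesin that pushes chromosome arms outwards, had 7.77 and 3.63 FPKM in KO 1 and KO 2, and 0.550 and 0.945 FPKM in WT 1 and WT 2 (fitted difference 1.88 ± 0.32, SE). Kif4, another kinesin that binds chromosome arms, had 3.04 and 1.67 FPKM in KO 1 and KO 2, and 0.217 and 0.260 FPKM in WT 1 and WT 2 (1.41 ± 0.25). In these 3 genes each library labelled KO was above each WT library, and Kif22 and Kif4 were below 1 FPKM in both WT libraries. Nusap1, a protein that bundles spindle microtubules, had 6.23 and 2.26 FPKM in KO 1 and KO 2, and 0.526 and 0.628 FPKM in WT 1 and WT 2, with KO 1 at 2.76 times KO 2.

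Tpx2, which activates Aurora A on the spindle, Hmmr, a spindle pole protein, and Kif2c, a kinesin that takes microtubules apart at the centromere, had ratios of means of 4.13, 2.19 and 7.98. Kif11, the motor that pushes the spindle poles apart, did not pass (limma, adjusted p = 0.12): it had 10.8 and 6.09 FPKM in KO 1 and KO 2, and 5.22 and 4.71 FPKM in WT 1 and WT 2. Stmn1, a microtubule-destabilising protein with the highest level per length of any member in both libraries labelled KO, had 62.3 and 35.7 FPKM in KO 1 and KO 2, and 22.2 and 26.0 FPKM in WT 1 and WT 2 (log2 change 0.94 ± 0.29, SE; limma, adjusted p = 0.0546). In both, KO 1 stood apart and KO 2 lay nearer to the WT libraries. Aspm, a spindle pole protein, was not tested; it had 1.33 and 0.673 FPKM in KO 1 and KO 2, against 0.135 and 0.0700 FPKM in WT 1 and WT 2.

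Of 6 cytokinesis genes 3 were tested at 1 FPKM or more in a WT library. All 3 had an unadjusted p under 0.05 (limma), against 4237 of 10524 such rows. Of them 1, Kif23, passed as higher, against 23.7% of all such rows, with 0 after trimmed-mean scaling. Kif23, the motor subunit of centralspindlin, had 6.25 and 3.26 FPKM in KO 1 and KO 2, and 1.32 and 2.07 FPKM in WT 1 and WT 2 (log2 change 1.06 ± 0.29, SE; limma, adjusted p = 0.0386). Kif20a, the kinesin that brings the passenger complex to the midzone, had 3.55 and 1.34 FPKM in KO 1 and KO 2, and 0.413 and 0.538 FPKM in WT 1 and WT 2; it entered only through the libraries labelled KO. Racgap1, the other subunit of centralspindlin, had 28.6 and 19.6 FPKM in KO 1 and KO 2, and 17.2 and 13.9 FPKM in WT 1 and WT 2, and did not pass (limma, adjusted p = 0.117). Prc1, which crosslinks the midzone microtubules, had 10.1 and 7.63 FPKM in KO 1 and KO 2, and 6.00 and 5.64 FPKM in WT 1 and WT 2 (limma, adjusted p = 0.0893). As with Cdca8 and Birc5, partners in 1 complex had unequal ratios of means, 2.81 for Kif23 and 1.55 for Racgap1. Ect2, the exchange factor that starts the contractile ring, and Anln, the ring protein anillin, were not tested. Ect2 had 2.16 and 0.701 FPKM in KO 1 and KO 2, against 0.542 and 0.417 FPKM in WT 1 and WT 2. Anln had 0.772 and 0.488 FPKM in KO 1 and KO 2, against 0.0268 and 0.112 FPKM in WT 1 and WT 2, which by the depth estimate is 3 and 11 fragments in the WT libraries.

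The ratio of means differed with the level of the gene in the WT libraries. The 23 members under 1 FPKM by their WT mean had ratios of 2.86 to 16.6 (median 7.98), and the 17 members at 1 to 5 FPKM had ratios of 1.31 to 13.1 (median 3.81). The 7 members at 5 FPKM or more, Stmn1, Ube2c, Bub3, Racgap1, Birc5, Cenpa and Prc1, had ratios of 1.19 to 2.03 (median 1.52), and 0 of them passed. The WT mean is the denominator of the ratio, so the link between them is a description and carries no test. In FPKM the differences were not small in this last set: Stmn1 differed by more FPKM between the group means than any other member.

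Within the pair of libraries labelled KO, KO 1 was above KO 2 in 47 of 47 members, also after trimmed-mean scaling, against 58.0% of all rows tested. The ratio of KO 1 to KO 2 had a median of 1.95 over the members (quartiles 1.65 and 2.33, range 1.13 to 3.56), where the median over all rows was 1.04 (quartiles 0.906 and 1.21). KO 1 was over 1.5 times KO 2 in 38 members and over 2 times in 21. On the log2(FPKM + 1) scale the difference passed 2-fold in 7 tested members, Cdca3, Aurkb, Ccnb2, Top2a, Nusap1, Mki67 and Cdca8, against 1.09% of all rows. The median difference of the tested members on that scale was 0.76, against 0.05 over all rows. With 1 library on each side there is no replicate behind this contrast and no p-value, and members are not independent replicates of it.

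In the WT pair, WT 1 was above WT 2 in 20 of 47 members. Among the 41 tested it was above in 17, against 3509 of 11074 rows tested. In FPKM, WT 1 was over 2 times WT 2 in 2 members and WT 2 over 2 times WT 1 in 6. On the log2(FPKM + 1) scale 0 tested members differed by over 2-fold, against 312 of 11074 rows tested. Set against the WT mean, the members were higher by a median of 6.30 times in KO 1 (range 1.29 to 23.2) and 2.82 times in KO 2 (range 1.02 to 10.01). The gap between the libraries labelled KO was widest in members with low WT levels, with a median ratio of 2.26 for those under 1 FPKM (range 1.38 to 3.56), against 1.32 for those at 5 FPKM or more (range 1.13 to 1.75).

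**Figure D4:**
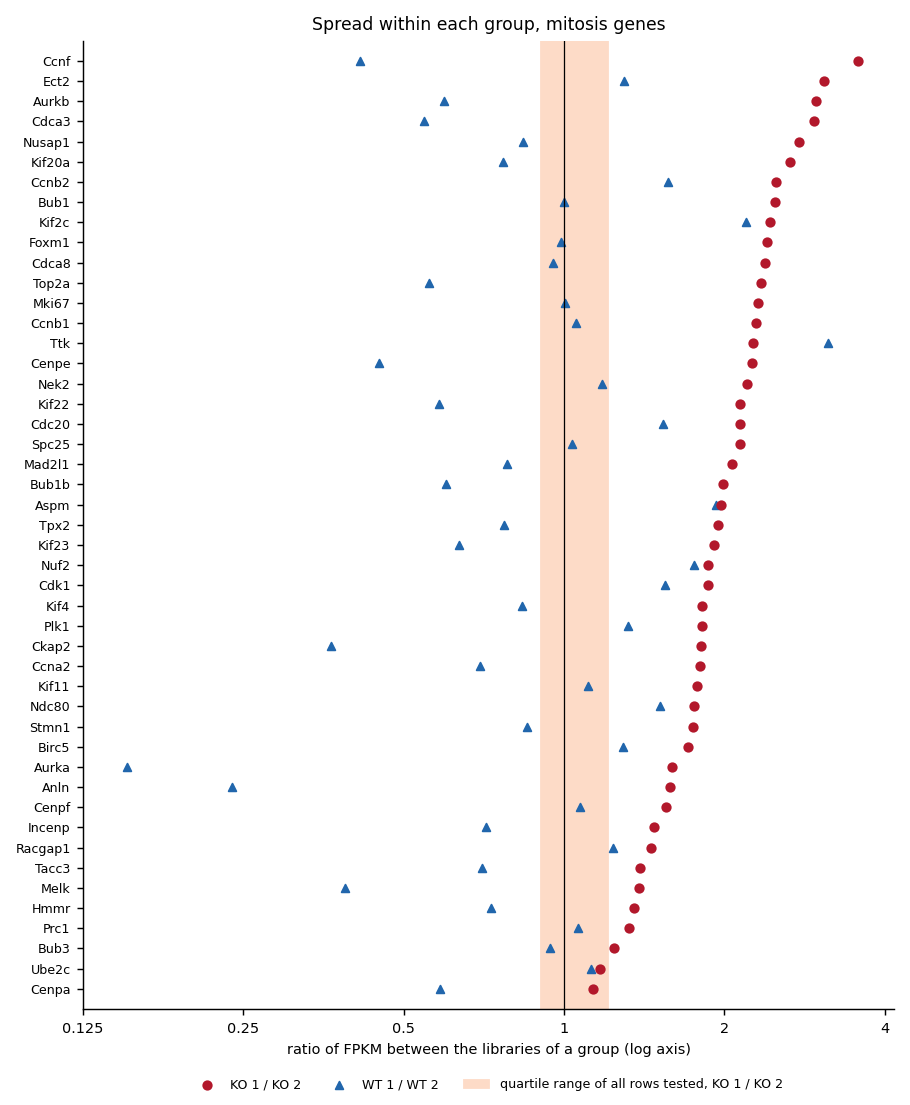
Ratio of FPKM between the 2 libraries of a group (x axis, log scale) for each mitosis gene (rows, ordered by KO 1 over KO 2): red circles KO 1 over KO 2, blue triangles WT 1 over WT 2, shaded band the quartile range of KO 1 over KO 2 in all rows tested (0.906 to 1.21). The circles all lie right of 1 (1.13 to 3.56), and the triangles fall on both sides of it.

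Other cell cycle lists, chosen with earlier results of these data known and sharing no gene with the members, were set beside them, counting only genes at 1 FPKM or more in a WT library, for which the shares over all rows are again 23.7% as deposited and 3.76% after trimmed-mean scaling. Of 37 such DNA replication genes, 19 were higher (limma), with 5 after trimmed-mean scaling, and their median log2 change was 0.75. KO 1 was above KO 2 in 38 of all 44. Uhrf1, a protein that recruits the maintenance DNA methyltransferase, had 9.64 and 4.67 FPKM in KO 1 and KO 2, and 0.582 and 0.592 FPKM in WT 1 and WT 2, so that it entered only through the libraries labelled KO. Tk1, thymidine kinase, had 9.14 and 6.60 FPKM in KO 1 and KO 2, and 1.88 and 1.08 FPKM in WT 1 and WT 2 (limma, adjusted p = 0.0127). Lig1, the ligase of replication, had 12.7 and 8.71 FPKM in KO 1 and KO 2, and 1.74 and 3.28 FPKM in WT 1 and WT 2 (limma, adjusted p = 0.0139). The median difference of KO 1 minus KO 2 in this list was 0.37 (log2), against 0.76 in the mitosis genes; the lists were not tested against each other.

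Of 8 other regulators of mitotic entry, 7 were higher (limma), with 1 after trimmed-mean scaling, and the median log2 change was 0.94. Cdc25b, the phosphatase that activates CDK1, had 31.7 and 26.1 FPKM in KO 1 and KO 2, and 4.30 and 7.23 FPKM in WT 1 and WT 2 (limma, adjusted p = 0.0111). Over the 11 genes of this list tested at all, the median difference of KO 1 minus KO 2 was -0.03, and KO 1 was above KO 2 in 7 of 13 genes. Bora, which activates Plk1, had 3.99 and 4.28 FPKM in KO 1 and KO 2, and 0.98 and 1.86 FPKM in WT 1 and WT 2. Plk4, the kinase of centriole duplication, had 3.41 and 2.63 FPKM in KO 1 and KO 2, and 0.899 and 1.31 FPKM in WT 1 and WT 2. Both passed as deposited (limma) and not after trimmed-mean scaling.

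Of 8 other spindle and cytokinesis genes, 2 were higher (limma), with 1 after trimmed-mean scaling (Ckap5, a microtubule polymerase), and the median log2 change was 0.51. A further 9 genes of this list entered only through the libraries labelled KO, among them Arhgap11a, a GTPase-activating protein, and Spag5, the spindle protein astrin. Spag5 had 3.81 and 1.93 FPKM in KO 1 and KO 2, and 0.270 and 0.436 FPKM in WT 1 and WT 2, whereas Fam83d ran the other way within the pair labelled KO, with 1.16 FPKM for KO 1 and 4.2 FPKM for KO 2. Of 15 condensin and cohesin genes 8 were higher (limma; median 0.79), with 1 after trimmed-mean scaling; this was the condensin subunit Ncapd2, with 12.2 and 7.67 FPKM in KO 1 and KO 2, and 2.07 and 2.53 FPKM in WT 1 and WT 2. Its list also held Cdca5 (sororin), at 3.33 and 2.32 FPKM in KO 1 and KO 2 and 0.355 and 0.477 FPKM in WT 1 and WT 2, and the cohesin-associated Pds5a, at 23.9 and 26.0 FPKM in KO 1 and KO 2 and 10.7 and 11.04 FPKM in WT 1 and WT 2.

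Of 16 genes of the APC/C and separase, 7 were higher (limma), with 1 after trimmed-mean scaling, and their median log2 change was 0.37, against 0.35 over all such rows. Fzr1, the APC/C activator of late mitosis and G1, had 9.76 and 7.43 FPKM in KO 1 and KO 2, and 2.86 and 3.61 FPKM in WT 1 and WT 2 (limma, adjusted p = 0.0151, and 0.0494 after trimmed-mean scaling). Of 18 other kinetochore genes 3 were higher (limma; median 0.33), and 0 after trimmed-mean scaling. Cenpt, which links the centromere to the NDC80 complex, had 3.70 and 4.79 FPKM in KO 1 and KO 2, and 1.46 and 1.67 FPKM in WT 1 and WT 2.

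**Figure D5:**
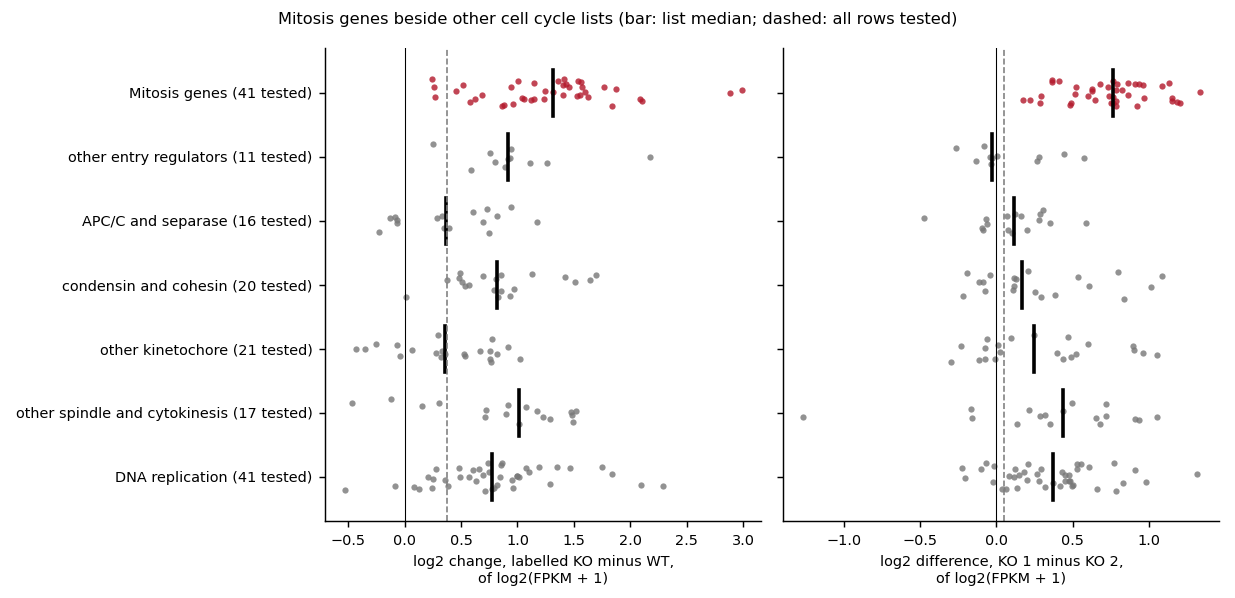
Log2 change of log2(FPKM + 1), libraries labelled KO minus WT (left), and log2 difference KO 1 minus KO 2 (right), for each tested gene (points) of the mitosis genes (red) and of 6 other cell cycle lists (grey), with the median of each list (bar) and of all rows tested (dashed line). The medians of the mitosis genes are 1.32, with the 16 that entered only through the libraries labelled KO included, and 0.76, and all their points on the right lie above 0.

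The CHR motif was unevenly spread over these lists. It was in 14 of 21 windows of the other spindle and cytokinesis genes (66.7%), in 7 of 14 condensin and cohesin windows, in 3 of 10 windows of other entry regulators, in 6 of 24 other kinetochore windows, in 16.7% of the APC/C windows and in 14.3% of the DNA replication windows, where CCAAT stood at 57.1%.

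Markers of other cell types moved with the groups in part. Summed erythroid RNA was far higher in the libraries labelled KO. Its 13 rows came to 563 and 452 FPKM in KO 1 and KO 2, against 11.4 and 147 FPKM in WT 1 and WT 2. The 4 tested rows at 1 FPKM or more in a WT library, all globin, passed as higher (limma), against 23.7% of all such rows. After trimmed-mean scaling 0 passed, against 3.76% of all such rows. Most of the erythroid sum is globin, whose near-identical copies may share reads, and Alas2, Slc4a1 and Klf1 were at 0 in WT 1. Gata1 differed less, with 1.20 and 0.746 FPKM in KO 1 and KO 2 and 0.726 and 0.675 FPKM in WT 1 and WT 2. So did Epb4.2, with 0.781 and 0.786 FPKM in KO 1 and KO 2 and 0.772 and 0.505 FPKM in WT 1 and WT 2. The erythroid sum of WT 2 was 12.9 times that of WT 1, where the sum of the mitosis genes was 154 and 158 FPKM. The 6 B cell markers summed to 14.2 and 13.6 FPKM in KO 1 and KO 2, against 6.62 and 6.51 FPKM in WT 1 and WT 2, with Pax5 at 0 in WT 2. Of the 2 tested at 1 FPKM or more in a WT library, 1 was higher (limma), and 0 after trimmed-mean scaling, beside the same shares of all such rows.

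Of the 4 markers of germinal centre B cells and plasma cells, 1 was tested and did not pass; they summed to 7.83 and 10.7 FPKM in KO 1 and KO 2, against 5.04 and 6.31 FPKM in WT 1 and WT 2. The 6 myeloid markers summed to 4.21 and 6.35 FPKM in KO 1 and KO 2, against 0.992 and 3.15 FPKM in WT 1 and WT 2. Cd14 was at 0 in KO 2 and both WT libraries. Lyz2, the 1 tested, was higher as deposited, but did not pass after trimmed-mean scaling (limma, adjusted p = 0.0923). It had 2.99 and 4.38 FPKM in KO 1 and KO 2, and 0.164 and 1.53 FPKM in WT 1 and WT 2. The CD8 markers summed to 11.1 and 11.6 FPKM in KO 1 and KO 2 and 11.3 and 10.7 FPKM in WT 1 and WT 2, and the 3 NK markers to at most 1.11 FPKM in any library. The 8 T cell markers summed to 1580 and 1486 FPKM in KO 1 and KO 2, against 967 and 1248 FPKM in WT 1 and WT 2. The part of these cell types in the levels of the mitosis genes was not tested. Between KO 1 and KO 2, the T cell sum of KO 1 was 1.06 times, the erythroid sum 1.25 times and the B cell sum 1.05 times that of KO 2, where the sum of the mitosis genes was 1.72 times as high.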

How the data were processed

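The authors deposited 1 FPKM value per gene row and library, per the file headers. Direct-zol kits gave the RNA and the NEBNext Ultra kit the libraries, per the labels' protocols. Bowtie 0.12.2 and mm8 appear in the submitters' processing notes, with no role given. The sources used here give neither the program behind the FPKM nor its annotation. FPKM divides by the mapped total, so abundant genes that change shift all others.

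The 4 tables hold 23700 rows each. Rows with at least 1 FPKM in at least 2 libraries (11074) entered limma 3.58.1 (R 4.3.3, intensity trend) on log2(FPKM + 1), all 4 libraries, two-sided, with Benjamini-Hochberg adjustment over all rows and a threshold of 0.05; fold values are ratios of mean FPKM, and log2 changes on this scale understate those of low genes. For 2 against 2 libraries an exact permutation test of 1 gene cannot go below p = 0.333, so none was run. Depth was estimated from 2804 genes with 1 transcript and an assumed fragment length of 200 nt: 49.7% to 57.7% of their low values came within 0.05 of a whole number of fragments, so whole reads were not recovered and no count test was run. The limma fit was tested on simulated data. Lists, depth estimate, promoter search and figures used matplotlib 3.10.9, pandas 2.3.3 and numpy 2.4.6 under Python 3.11.15.

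The members and lists were chosen with earlier results of these data known. Values in every library are given for Mki67, Top2a, up to 3 members of each role by unadjusted p, tested members that did not pass, and the 5 largest gaps between KO 1 and KO 2, and of each other list for up to 3 genes by unadjusted p; further genes named were chosen after their values were seen. Bora, Ska2 and Ska3 were matched through RefSeq synonyms. A few marker genes are not reported here by name. Alternatives were other pseudocounts, filters and scalings, limma without the trend, a replicate block and each library left out. Promoter windows come from RefSeq on another build than mm8 and serve as sequence only.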

Additional observations from a re-analysis of the deposited data

How the results depend on the processing

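No member passed as lower under any setting run, and no named member's call changed direction. The counts of members below include those that entered only through the libraries labelled KO. Members passing as higher (30 of all 41 tested) were 29 and 30 with pseudocounts of 0.1 and 5, 23 with a filter on a mean of 1 FPKM, 30 without the trend, 6 of 14 tested with a filter on a mean of 5 FPKM, 15 with trimmed-mean scaling, 3 with quantile normalization, and 0 of 47 without a filter (limma, smallest adjusted p = 0.0858, 37 at an unadjusted p under 0.05). For the 37 no share over all rows was taken. With a library left out, a group rests on a single library, so counts passing are not given. All genes passing as higher (2832) were 3 without a filter, 1562 at a mean of 5 FPKM, 501 with trimmed-mean scaling, 179 with quantile normalization, and 9 to 2173 with a library left out; those lower (111) were 0 without a filter, 415 with trimmed-mean scaling and 1 to 132 with a library left out. With a replicate block 3909 genes passed as higher, 230 as lower, and 35 members as higher; the differences KO 1 minus KO 2 and WT 1 minus WT 2 correlated across 11074 rows at r = 0.108, and with 2 pairs the libraries share only a number.

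The median change of the members (1.32, and 0.94 above the median row) was 2.003 and 1.54 with a pseudocount of 0.1, and 0.54 and 0.32 with 5, and 0.94 to 1.70 and 0.58 to 1.29 with a library left out. Members over 2-fold higher in KO 1 than in KO 2 (7) were 17 and 0 with these pseudocounts and 3 at a mean of 5 FPKM. The median difference KO 1 minus KO 2 (0.762) was 0.881 and 0.434 with these pseudocounts, 0.762 without a filter, 0.732 at a mean of 5 FPKM, 0.693 with trimmed-mean scaling and 0.695 with quantile normalization. The filters change which genes are tested; beyond that the cause of each shift was not tested. Low members rest on few fragments in the WT libraries, and 2 libraries a group set the precision of every value.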
